A study of Homo sapiens with 6 samples.

Results

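The 10 genes described here encode the BCR-ABL1 fusion partners and the STAT5 signalling pathway of K562 cells: BCR, ABL1, EPOR, JAK2, STAT5A, STAT5B, CISH, SOCS2, PIM1 and BCL2L1. They were chosen by name, 10 of 19864 protein-coding genes annotated on chromosomes 1 to 22 and X (GENCODE release 29, build GRCh38). Active promoters and enhancers were called by dREG, a classifier that reads the pattern of engaged RNA polymerase on both strands, from precision run-on sequencing (PRO-seq). K562 is an established human leukaemia line, grown without treatment, and 3 groups of 2 replicate libraries were compared. PRO-seq 1M libraries followed the published protocol, with 3 affinity purifications of the nascent RNA. qPRO-seq 1M libraries followed a shortened one with 1 purification, and both kinds used 1M cells and 11 cycles of PCR. qPRO-seq 250k libraries were made by the shortened protocol from 250k cells with 14 cycles. Replicates were biological, and each group is represented by 1 deposited peak list.

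K562 cells carry a fusion of BCR on chromosome 22 with ABL1 on chromosome 9. The fusion is transcribed from the BCR promoter and encodes a tyrosine kinase that is active without its usual control. In erythroid cells STAT5 is normally activated by JAK2, the kinase bound to the erythropoietin receptor, and in BCR-ABL1 leukaemia the fusion kinase activates it as well. Active STAT5 enters the nucleus and binds a palindromic DNA motif at target genes. These include CISH and SOCS2, which feed back on cytokine receptors, PIM1, a serine/threonine kinase of cell growth, and BCL2L1, whose main product is the survival protein BCL-XL.

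The lists held 24707 peaks (PRO-seq 1M), 38177 peaks (qPRO-seq 1M) and 15562 peaks (qPRO-seq 250k) on these chromosomes, with no read counts, so the depth behind them is unknown. Where 3 values stand together, they follow this order. With 1 list per group there was no replicate error to weigh a difference between lists, and no test between groups was made. The intervals given are Wilson 95% intervals and cover counting error alone. They treat every gene or peak as a separate draw. The genes were chosen by name and many of their peaks adjoin, so the intervals can be too narrow. The score of a peak is the authors' value. It is given as a percentile, the percent of peaks in the same list that scored lower, and percentiles from lists of different length do not measure a change. The labels call the line lymphoblastoid. By the definition given next, 8, 9 and 8 of 10 erythroid marker genes had a start peak, against 2, 2 and 1 of 8 B-lymphoid genes and 0 of 7 T-lymphoid genes in every list.

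A start peak is a peak within 500 bp of an annotated transcript start of the gene. Of the 10 genes, 9 had one in PRO-seq 1M (90.0%, 59.6 to 98.2), against 52.9% of all protein-coding genes. In qPRO-seq 1M 8 genes had one (80.0%, 49.0 to 94.3), against 54.5%, and in qPRO-seq 250k the number was again 8, against 44.0%. A start peak in all 3 lists was found for 8 of the 10, and for 43.1% of all genes. ABL1 had none in any list, and STAT5B had them in PRO-seq 1M only. Among genes with a start peak, the best percentile had a median of 82.2 in PRO-seq 1M for the members, and 76.4 for all genes. In qPRO-seq 1M the medians were 78.9 for the members and 80.7 for all genes, and in qPRO-seq 250k they were 73.4 and 68.2. The median of the members with a start peak thus lay above that of all such genes in 2 lists and below it in 1. The best percentile is a maximum over the start peaks of a gene. These members had a median of 2, 2.5 and 2 start peaks, against 1, 2 and 1 for all genes with any.

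**Figure D1:**
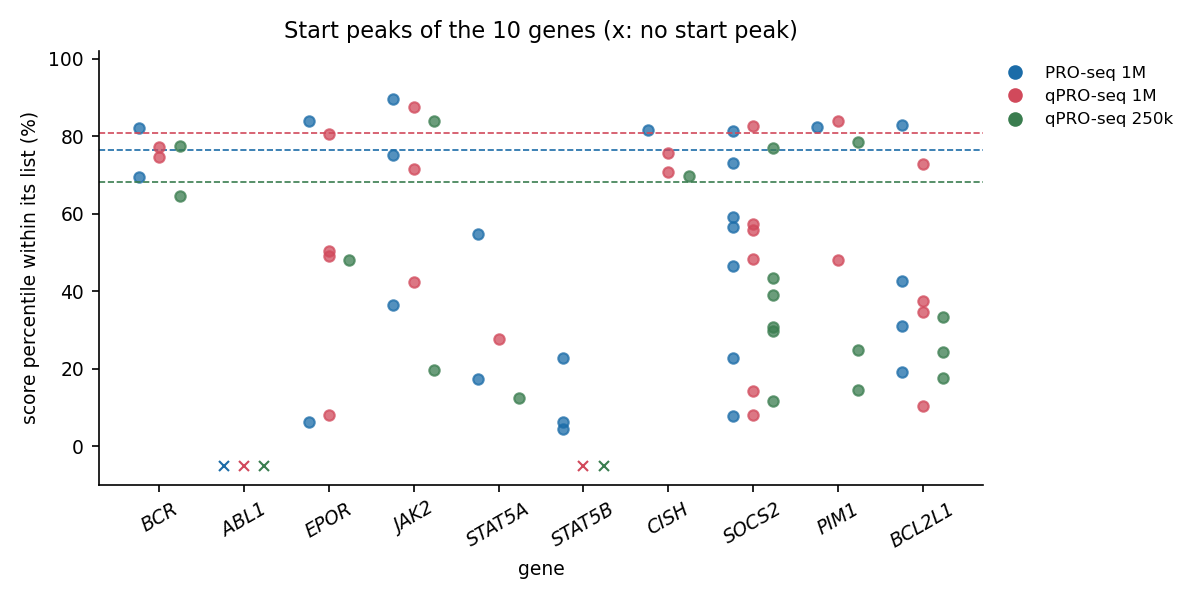
Score percentile within its list (%, vertical axis) of every start peak of the 10 genes (horizontal axis), coloured by list. Crosses stand for no start peak, and dashed lines for the median best percentile of all genes with a start peak (76.4, 80.7 and 68.2). ABL1 has crosses in all 3 lists, and STAT5A and STAT5B have no point above 54.85.

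BCR encodes a protein with kinase and GTPase-regulating parts, and its promoter drives the fusion transcript. The gene lies at chr22:23179704-23318037 on the plus strand, 138 kb long. In each list it had 2 start peaks, 20 bp apart, between 23180051 and 23181090. The upstream one stood at percentile 82.2 in PRO-seq 1M, 74.5 in qPRO-seq 1M and 64.5 in qPRO-seq 250k, and the downstream one at 69.4, 77.2 and 77.4. Which of the 2 ranked higher differed between the protocols, while the centre of each lay within 20 bp of its counterparts. The processed pseudogene BCRP8 is annotated on the opposite strand beside this start, and reads from related copies of BCR sequence could not be separated here, so the exact calls are uncertain.

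Beyond its promoter BCR held few elements. A single distal peak, meaning one with no annotated start of any gene within 500 bp, was called in its body, in qPRO-seq 1M at percentile 55.9 (chr22:23250141-23250520, intron 1, centre 702 bp from an internal BCR start). No distal peak lay within 100 kb on either side in any list. None of the 3 other protein-coding genes in that window (RSPH14, GNAZ and RAB36) had a qPRO-seq 1M start peak.

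ABL1, a non-receptor tyrosine kinase and the other fusion partner, lies at chr9:130713946-130887675 on the plus strand and is 174 kb long. It had no start peak in any list, as did 43.5% of all protein-coding genes and 47.8% of the 1798 genes at least as long. The nearest peak to its upstream starts was 986 bp away in PRO-seq 1M, at percentile 20.3, and counts as a start peak when the window is widened to 1000 bp. In the quick protocol's lists the nearest peak to that start was at EXOSC2, 19996 bp away in qPRO-seq 1M and 20056 bp away in qPRO-seq 250k. The downstream start, at 130835066, lay 9726 bp from a qPRO-seq 1M peak at percentile 3.49, and no peak of the other lists was nearer than 75725 bp.

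The fusion transcript of K562 joins exon 14 of BCR to exon 2 of ABL1, and the genomic break lies in the introns between. Up to the end of exon 14, BCR held 2, 3 and 2 peaks. The remaining 27.6 kb of BCR held none in any list. The 140 kb of ABL1 before exon 2 held 1 peak, in qPRO-seq 1M, which is the intronic peak at percentile 3.49 (chr9:130824971-130825340). From exon 2 to its end, 33.6 kb, ABL1 held none. The part of BCR that the fusion transcript retains is 110.7 kb long and holds the promoter, so the split itself places the start peaks there. Of its 7 peaks, 6 were the same 2 start peaks counted in each list. Apart from start peaks, each gene held 1 peak, in qPRO-seq 1M. The position of the break is not in the data, so the side of it on which the ABL1 peak lies cannot be told.

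Upstream of ABL1 the lists did share elements. A region overlapping the PRDM12 gene (chr9:130681001-130681910), 32036 bp upstream of the ABL1 body, was called in all 3 lists, with best percentiles of 83.2, 74.0 and 56.5. A second, intergenic one (chr9:130689921-130690510) stood at 76.5, 84.3 and 59.6, and its centre was between 3451 and 3601 bp from the start of EXOSC2, a subunit gene of the RNA exosome. Which gene these elements act on is not part of the data.

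EPOR, the erythropoietin receptor, lies at chr19:11377205-11384342 on the minus strand. It had a peak over its main start in all 3 lists, centred within 78 bp of it, at percentile 84.0 in PRO-seq 1M, 80.6 in qPRO-seq 1M and 48.1 in qPRO-seq 250k. In qPRO-seq 250k that was its only start peak. The gene had 2 start peaks in PRO-seq 1M and 4 in qPRO-seq 1M, where the extra ones reached no higher than percentile 50.2. Distal peaks were called in qPRO-seq 1M alone, 4 of them, between 92595 and 98805 bp from the gene body.

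The EPOR promoter is shown because the start peaks of all 3 lists covered the 1 GATA motif found among the member promoters. GATA factors such as GATA1 are the main erythroid transcription factors. The motif searched was AGATAA or AGATAG, and likewise TGATAA or TGATAG, on both strands. It occurs in 24.9% of 34961 RefSeq promoters of 300 bases (build GRCh38.p14). Of promoters overlapped by a qPRO-seq 1M peak, 13.8% hold it, and of the 15 member promoters 1 does (6.67%). Below are the 250 bases upstream of the RefSeq start, chr19:11384315-11384564, minus strand, 5′ to 3′, with the motif in capitals as read on the gene's strand.
EPOR: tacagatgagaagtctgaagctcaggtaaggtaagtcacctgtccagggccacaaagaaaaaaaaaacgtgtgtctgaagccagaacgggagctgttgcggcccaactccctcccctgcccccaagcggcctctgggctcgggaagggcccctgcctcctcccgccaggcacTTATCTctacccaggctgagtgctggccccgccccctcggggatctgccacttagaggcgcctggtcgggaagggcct
The motif begins at position -78 relative to the start. The centre of the start peak lay 49 bp from it in PRO-seq 1M and in qPRO-seq 1M, and 1 bp from it in qPRO-seq 250k. A match to these letters describes the sequence and does not show that a factor was bound.

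JAK2, the tyrosine kinase bound to the erythropoietin receptor, lies at chr9:4984390-5128183 on the plus strand. It had the best-ranked start peak of the 10 genes in each list, at percentile 89.5 in PRO-seq 1M, 87.5 in qPRO-seq 1M and 84.0 in qPRO-seq 250k. The peaks formed 1 block, from 4984431 to 4985920 at its widest, split into 3, 3 and 2 peaks with gaps of 20 bp. The top peak of the 1M lists was centred at -425 and -435 bp relative to the canonical start, and that of qPRO-seq 250k at 15 bp downstream of it. The strongest call therefore sat at a different part of the same block in qPRO-seq 250k. Despite a body of 144 kb, its only distal peaks were 2 in qPRO-seq 1M, an exonic one just behind the start block (percentile 45.3) and an intergenic one 56960 bp upstream (percentile 4.81).

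STAT5A and STAT5B are neighbouring genes for closely related transcription factors, transcribed away from each other, with their nearest starts 10840 bp apart on chromosome 17. Both ranked low at their starts. STAT5A (chr17:42287547-42311943, plus strand) had its best start peak at percentile 54.85 in PRO-seq 1M, 27.7 in qPRO-seq 1M and 12.3 in qPRO-seq 250k. These peaks did not lie on the first start. Their nearest edges were 1444, 1874 and 2024 bp downstream of it, around a later annotated start at 42289213, and no peak of any list overlapped the 3 RefSeq promoters of the gene.

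STAT5B (chr17:42199168-42276707, minus strand) had 3 start peaks in PRO-seq 1M and none in the other lists. They stood at percentiles 22.8, 6.27 and 4.46, with deposited p-values of 0.00781, 0 and 0.0154, and the middle one was centred 6 bp from the canonical start. A deposited p-value of 0 does not mark a high score. In qPRO-seq 1M it was given to distal peaks at percentile 3.65 (SOCS2 window) and 98.7 (STAT5B window). A start peak in PRO-seq 1M only was found for 1.68% of protein-coding genes. With all lists reduced to 15562 top-scored peaks, STAT5B had no start peak in any list, and STAT5A lost its qPRO-seq 1M start peak.

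In both quick-protocol lists the pair's best-ranked element was not at a start. It lay in intron 1 of STAT5B (chr17:42266751-42267570), centred 9326 bp downstream of the STAT5B canonical start in qPRO-seq 1M and ending 19977 bp before the STAT5A body. In qPRO-seq 1M it was a single peak of score 1.17, at percentile 98.7. In qPRO-seq 250k it was at percentile 57.7, and in PRO-seq 1M it was split into 2 peaks at 46.9 and 45.9, below the STAT5A start. It was the only one of the 11 intragenic regions of the members that all 3 lists held. The remaining elements around the pair were weaker: a region in HCRT was shared by all 3 lists at percentiles 37.8, 57.05 and 6.28, and one in an intron of STAT3 by both quick-protocol lists at 31.3 and 29.75.

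CISH, a feedback inhibitor of cytokine receptors, is a classical STAT5 target (chr3:50606490-50611831, minus strand). It had a start peak at percentile 81.6 in PRO-seq 1M, 75.7 in qPRO-seq 1M and 69.8 in qPRO-seq 250k. The PRO-seq 1M peak was 1140 bp wide, and qPRO-seq 1M divided the same stretch into 2 peaks with a gap of 20 bp. MAPKAPK3, a protein kinase gene on the other strand, starts 77 bp from a CISH start, and every CISH start peak lay within 500 bp of it, so these peaks belong to both genes alike. Its promoter is printed because STAT motifs are the sites through which STAT5 is known to act. The motif searched was TTCNNNGAA, which reads the same on both strands. Below are the 250 bases upstream of the RefSeq start, chr3:50611775-50612024, minus strand, 5′ to 3′ (build GRCh38.p14), with each motif in capitals.
CISH: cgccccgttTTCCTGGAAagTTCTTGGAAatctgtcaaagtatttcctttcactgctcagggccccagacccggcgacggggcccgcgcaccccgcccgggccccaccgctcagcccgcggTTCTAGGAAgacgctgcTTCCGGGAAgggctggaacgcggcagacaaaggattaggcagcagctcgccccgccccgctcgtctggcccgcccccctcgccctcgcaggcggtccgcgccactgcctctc
The window held 4 motifs, beginning at positions -241, -230, -129 and -112 relative to the start. Of 34961 promoters, 7.66% hold at least 1, and 7 promoters, of 6 genes, hold 4 or more. All 4 motifs lay inside the start peak in PRO-seq 1M and in qPRO-seq 250k. In qPRO-seq 1M the pair nearer the start lay inside a peak, while the farthest one fell in the gap between the 2 peaks and the next lay across the edge of that gap. The motifs lay between 11 and 101 bp from the nearest peak centre over the 3 lists. None of the 14 other promoters found for the members held the motif. SOCS2 is not among them.

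**Figure D2:**
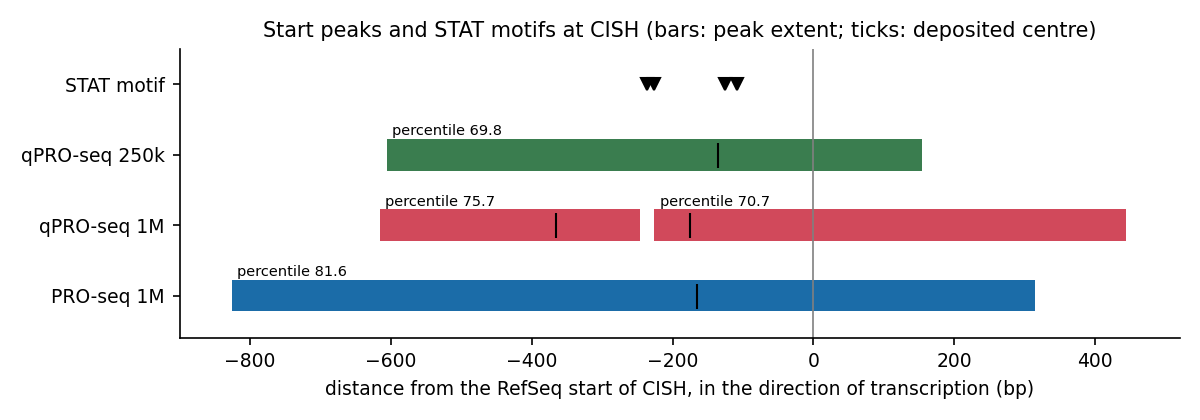
Extent of the CISH start peaks in the 3 lists (bars, with the deposited centre as a tick) and the 4 STAT motifs (triangles), by distance from the RefSeq start in bp. The motifs lie within the single peak of PRO-seq 1M and of qPRO-seq 250k, and the farther pair lies at the 20 bp gap between the qPRO-seq 1M peaks.

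Other elements around CISH were few. PRO-seq 1M held 2 distal peaks, at percentile 16.1 inside the gene (chr3:50610421-50610890) and at 33.04 at a distance of 66720 bp downstream. The other lists held none in the window.

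SOCS2, a suppressor of cytokine signalling and of growth hormone action, lies at chr12:93569814-93583487 on the plus strand. Its start was covered by the longest row of peaks among the members, 7 in PRO-seq 1M, 6 in qPRO-seq 1M and 6 in qPRO-seq 250k. As many start peaks were found for 0.0571%, 0.712% and 0.0458% of the genes that had any. Neighbouring peaks were mostly 20 bp apart, and joining peaks closer than 500 bp left 1 per list. The rows spanned 2360, 3580 and 3280 bp, and SOCS2 has 12 annotated starts. The start of the antisense transcript SOCS2-AS1 lies 37 bp from one of them, so the peaks around it cannot be assigned to either gene alone. The best of these peaks stood at percentiles 81.4, 82.5 and 76.9. In PRO-seq 1M it was centred 1146 bp downstream of the first start, and in the quick-protocol lists 166 and 136 bp downstream of it.

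An intergenic region 7664 bp downstream of SOCS2 (chr12:93591151-93592030) was called as a single peak in all 3 lists and ranked above the gene's own start in each, at percentiles 85.8, 92.7 and 84.5. A neighbour (chr12:93593061-93593470) was shared by the 1M lists at percentiles 13.4 and 78.4. Inside the gene the only distal peak was in qPRO-seq 1M, at percentile 12.7 (chr12:93573021-93573420), directly behind the row of start peaks. None was called upstream in any list.

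PIM1, on chromosome 6 (chr6:37170203-37175426, plus strand), had a peak over its start in all 3 lists, at percentiles 82.3, 83.8 and 78.5. Both quick-protocol lists added a peak at its inner starts, centred 2057 bp downstream, at percentiles 48.04 and 14.4. PIM1 had more distal peaks around it than any other member: 12 in PRO-seq 1M, 19 in qPRO-seq 1M and 9 in qPRO-seq 250k. As many or more were found for 0.574%, 0.478% and 0.493% of protein-coding genes. The body is short (5.22 kb) and held no distal peak, so that all of these lay outside it.

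Joined across the lists, the PIM1 peaks made 18 regions, 7 upstream and 11 downstream, 13 of them intergenic and 5 in introns of TMEM217. All 3 lists held 5 of the regions, and 8 were in qPRO-seq 1M alone. Only overlapping peaks were joined, so adjoining pieces counted as separate regions. Examples in qPRO-seq 1M alone were chr6:37177141-37177440, chr6:37177461-37177710 and chr6:37177731-37178170. The top region lay 59453 bp upstream of the gene (chr6:37109631-37110750). It stood at percentile 88.6 in PRO-seq 1M, 97.7 in qPRO-seq 1M and 99.7 in qPRO-seq 250k, and was the highest-ranked distal peak of any member in PRO-seq 1M and in qPRO-seq 250k. It ranked above the PIM1 start peak in every list. A second upstream block (chr6:37102031-37103740) reached percentiles 67.4, 85.9 and 60.9. A downstream region 7375 bp past the gene end (chr6:37182801-37183830) stood at 60.07, 93.75 and 21.9, and one in TMEM217 (chr6:37222101-37223210) at 80.95, 78.4 and 31.2.

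BCL2L1 (chr20:31664452-31723989, minus strand) had a block of 4, 4 and 3 start peaks. The best peak stood at percentile 82.75 in PRO-seq 1M and 72.8 in qPRO-seq 1M, centred at -652 and -692 bp relative to the canonical start. In qPRO-seq 250k the best reached percentile 33.2, at another part of the block, and the peak matching the top one of the 1M lists stood at 17.7. The gene had 6, 12 and 1 distal peaks. Its body held 4 distal regions, the most of any member, all in intron 2 and all in qPRO-seq 1M. The best of them (chr20:31675641-31676440) was at percentile 63.6 there and at 31.4 in PRO-seq 1M. Just past its end, 1542 bp downstream, a block (chr20:31661511-31662910) stood at percentiles 79.5 and 80.8 in the 1M lists and had no counterpart in qPRO-seq 250k. Of the 7 downstream regions, 5 lay between 53602 and 59812 bp away, around ID1, which is itself a gene with a start peak in all 3 lists.

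**Figure D3:**
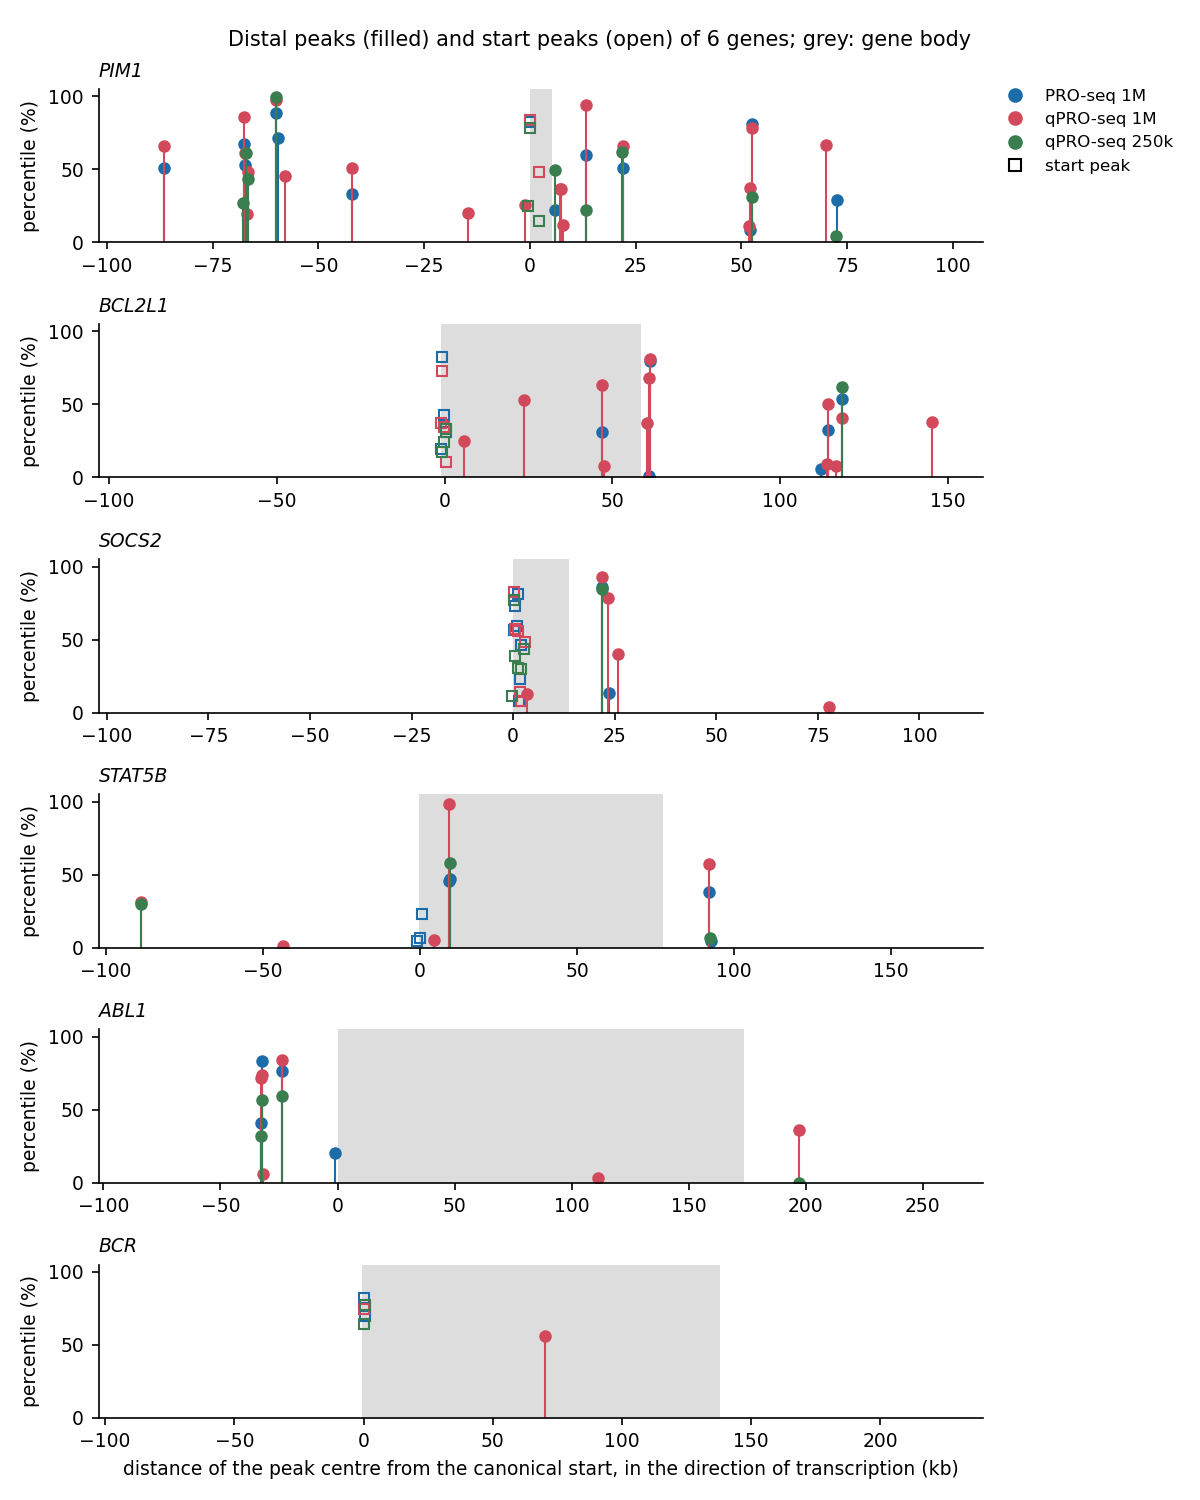
Distal peaks (filled circles with lines) and start peaks (open squares) around 6 of the genes, by distance from the canonical start in kb in the direction of transcription, with the score percentile in % on the vertical axis and the gene body in grey. Elements crowd both sides of PIM1, while the bodies of ABL1 and BCR hold 1 distal peak each.

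Over the 10 windows, each the gene body plus 100 kb on both sides, 30 distal peaks were called in PRO-seq 1M, 54 in qPRO-seq 1M and 18 in qPRO-seq 250k. At least 1 was present for 7, 9 and 6 members, against 54.0%, 75.2% and 38.0% of all protein-coding genes. The median number per gene was 2, 4.5 and 1 for the members and 1, 2 and 0 for all genes. With each list cut to its 15562 top-scored peaks the totals were 17, 17 and 18, of which PIM1 had 8, 8 and 9. Inside the gene bodies, a distal peak was found for 3, 6 and 1 members, against 12.2%, 23.4% and 7.19% of all genes. These shares were not matched for gene length, and BCR, ABL1 and JAK2 are 138, 174 and 144 kb long. In qPRO-seq 1M the intragenic peaks of JAK2 and SOCS2 lay directly behind the gene's own start peaks. With starts within 1000 bp, the intragenic peaks of that list fell from 10 to 6. The intragenic share of the members' distal peaks was 13.3% (5.31 to 29.7), 18.5% (10.4 to 30.8) and 5.56% (0.988 to 25.8). Over the windows of all protein-coding genes it was 12.95%, 14.8% and 12.2%, each inside the interval.

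**Figure D4:**
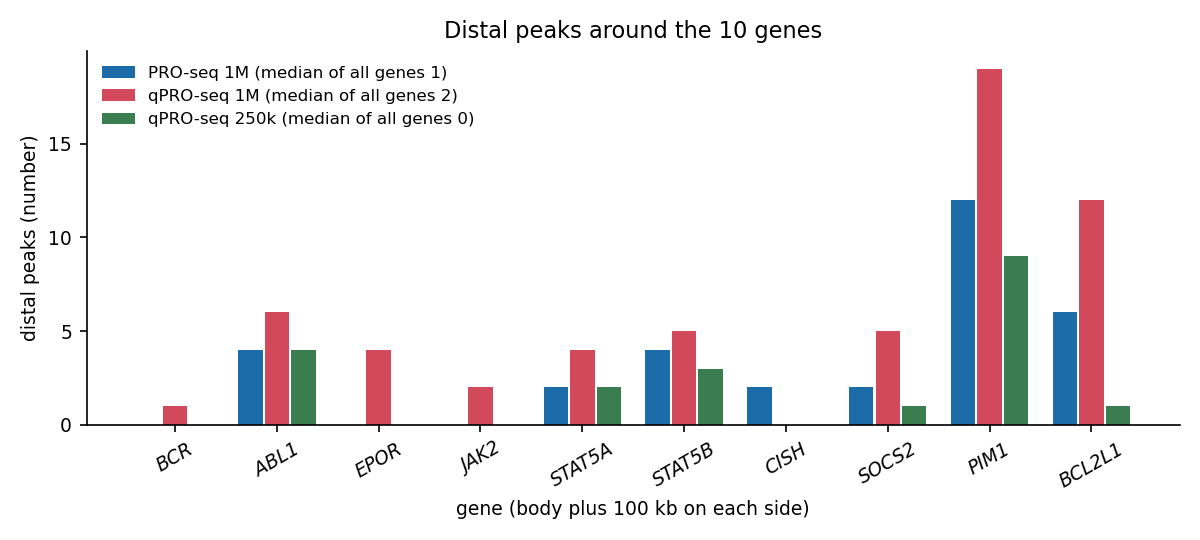
Number of distal peaks (vertical axis) in the window of each gene (horizontal axis), coloured by list. The legend gives the median over all protein-coding genes (1, 2 and 0). PIM1, with 12, 19 and 9, and BCL2L1 in the 1M lists, with 6 and 12, stand highest, and BCR has 1 peak in qPRO-seq 1M alone.

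The distal peaks joined into 55 regions, of which 4 lay in the windows of both STAT5A and STAT5B and were counted once. All 3 lists held 11 of the 55, a share with an interval of 11.55% to 32.4%, against 16.2% of all distal regions. qPRO-seq 1M alone held 28 (50.9%, 38.1 to 63.6), against 55.3%. The 1M lists alone shared 6 (10.9%, 5.1 to 21.8), against 18.1% of all distal regions. PRO-seq 1M alone also held 6 (10.9%), against 5.69%, which left 4 for the other combinations. The qPRO-seq 1M percentile was between 40.8 and 98.7, with a median of 84.3, in the regions held by all lists. In those of qPRO-seq 1M alone it ran from 1.4 to 66.5, with a median of 17.6. By position 30 of the 55 regions were intergenic, 16 intronic and 9 exonic.

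In qPRO-seq 1M, start peaks of the members were overlapped by each other list more often than their distal peaks, also under every alternative tried. For peaks of PRO-seq 1M the order turned with the setting. At equal list sizes, qPRO-seq 1M overlapped 73.3% of their start peaks and 88.2% of their distal peaks, and at a p of at most 0.01 it overlapped 86.4% and 88.0%. At or above the median score, qPRO-seq 250k overlapped 61.5% and 69.2%. For peaks of qPRO-seq 250k it turned when overlap of 50% of both peaks was asked for. PRO-seq 1M then overlapped 68.4% of start and 72.2% of distal peaks. The order also turned with distal peaks within 50 kb, a setting that leaves the start peaks unchanged. PRO-seq 1M then overlapped 90.9% of distal peaks, against 89.5% of start peaks. Of the 25 start peaks in PRO-seq 1M, 88.0% (70.04 to 95.8) were overlapped by qPRO-seq 1M, against 92.3% of all start-near peaks, and 68.0% (48.4 to 82.8) by qPRO-seq 250k, against 68.2%. Of the 24 in qPRO-seq 1M, 83.3% (64.2 to 93.3) were overlapped by each other list, against 81.05% by PRO-seq 1M and 60.9% by qPRO-seq 250k over all start-near peaks. All 19 start peaks of qPRO-seq 250k were overlapped by qPRO-seq 1M (97.8% of all) and 89.5% (68.6 to 97.1) by PRO-seq 1M (95.2% of all). Among distal peaks of PRO-seq 1M, 76.7% (59.1 to 88.2) were overlapped by qPRO-seq 1M, against 86.9% of all distal peaks. In the other direction it was 40.7% (28.7 to 54.03), against 42.4%. qPRO-seq 250k overlapped 31.5% (20.7 to 44.7) of the distal qPRO-seq 1M peaks and 53.3% (36.1 to 69.8) of the distal PRO-seq 1M peaks, against 24.35% and 43.1%. In turn 88.9% (67.2 to 96.9) of its own 18 distal peaks were overlapped by qPRO-seq 1M and 77.8% (54.8 to 91.0) by PRO-seq 1M, against 93.3% and 80.2%.

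Beyond the 10 genes, 43 further genes of the pathway were looked up. A start peak was present for 37 in PRO-seq 1M, 35 in qPRO-seq 1M and 29 in qPRO-seq 250k, against 52.9%, 54.5% and 44.0% of all protein-coding genes. All 3 lists held one for 29 (43.1% of all genes), and 6 had none in any list (43.5% of all genes). Among 12 adaptors and kinases downstream of the fusion, 10 had one in all 3 lists, led in qPRO-seq 1M by the adaptor CRKL (percentile 94.8), the phosphatase PTPN11 (92.7) and the kinase LYN (91.3). GAB2, a docking protein of BCR-ABL1, had none in qPRO-seq 250k.

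Among 13 other receptors, JAKs and STATs, 6 had a start peak in all lists, a share near the 43.1% of all protein-coding genes, and TYK2 (99.1) and STAT2 (98.7) ranked highest in qPRO-seq 1M. Among the receptor genes, CSF2RB and IL3RA had none in any list, CSF3R had one in PRO-seq 1M alone at percentile 12.3, and KIT had one in the 1M lists at 45.1 and 32.5. STAT4 had none, and JAK3 had none in qPRO-seq 250k. Of 12 other targets, 8 had a start peak in all lists, against 43.1% of all protein-coding genes. The highest percentiles in qPRO-seq 1M were those of ID1 (93.35), BCL6 (87.4) and CCND3 (80.6). OSM had none, PIM2 had one in PRO-seq 1M alone at percentile 21.5, and BCL2 and GADD45G had none in qPRO-seq 250k. All 6 inhibitors had a start peak in both 1M lists, among them PTPN1 (98.01), SH2B3 (95.2) and PIAS3 (94.6). The share of all protein-coding genes was 52.9% in PRO-seq 1M and 54.5% in qPRO-seq 1M. Only PTPN6, a phosphatase of blood cells, lacked one in qPRO-seq 250k.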

How the data were processed

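Peak lists of 3 groups (6 libraries) were analysed. Peaks are dREG calls per the labels, and the submitters' processing notes name hg38, fastp 0.20.0, Bowtie2 2.3.5.1, deepTools 3.1.3 and UMI-tools. The dREG version, thresholds and pooling of replicates are not given in the sources used here. The authors deposited a score without a unit and a p-value (0 to 0.05, adjustment not stated) per peak, besides start, end and centre positions on a 10 bp grid. Depth is unknown, so precision is limited to counting error.

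From these, peaks were matched to GENCODE release 29 (all transcripts) with pandas 2.3.3 and numpy 2.4.6. Canonical means the APPRIS principal transcript with most exons. Positions are printed counted from 1. Overlap means at least 1 bp. The interval functions were tested on simulated peaks. RefSeq promoters run from 250 bases before to 50 after a start, and 15 were found for 9 members. Motifs were searched only there.

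The named genes are the 10 members, plus the pathway genes that lacked a start peak in a list or had the 3 highest qPRO-seq 1M percentiles of their group. Some genes that meet this rule are not reported here. Members and lists were chosen with earlier results of these data known. Alternatives were a p of at most 0.01, starts within 1000 bp, protein-coding starts alone, distal peaks within 50 kb, equal list sizes, merging within 500 bp, overlap of 50% of both peaks, and scores at or above the list median.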

Additional observations from a re-analysis of the deposited data

How the results depend on the processing

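Of 184 alternative values for 28 results, 149 stayed within 1.5 times (counts) or within the interval (shares) and 35 moved. The cause was not tested except where the setting itself shortens the lists. No paired analysis was possible because each list stands for both replicates, and for the same reason no replicate could be left out. The number of members with a start peak moved in 1 case, to 5 in qPRO-seq 250k at or above the median score. Distal peaks in PRO-seq 1M fell to 17 at equal list sizes and 13 at or above the median score. In qPRO-seq 1M they fell to 34 within 50 kb, 17 at equal sizes, 35 after merging and 22 at or above the median, and in qPRO-seq 250k to 11 within 50 kb and 8 at or above the median. The intragenic share in PRO-seq 1M was 0% at or above the median. At equal sizes, all start peaks (100%) of PRO-seq 1M were overlapped by qPRO-seq 250k, and all (100%) of qPRO-seq 1M by each other list, while qPRO-seq 1M overlapped 63.2% of those of qPRO-seq 250k. Of distal peaks, either other list then overlapped 88.2% in PRO-seq 1M. In qPRO-seq 1M the shares were 82.35% (overlapped by PRO-seq 1M) and 64.7% (by qPRO-seq 250k), and in qPRO-seq 250k 61.1% (by qPRO-seq 1M). At or above the median score, qPRO-seq 1M overlapped 92.3% of distal PRO-seq 1M peaks, and 59.1% were overlapped in the other direction. The shares of start peaks were then 61.5% in qPRO-seq 1M (overlapped by qPRO-seq 250k) and 100% in qPRO-seq 250k (overlapped by PRO-seq 1M). After merging, qPRO-seq 250k overlapped 100% of the start peaks in qPRO-seq 1M. Asking for 50% of both peaks left 68.4% of those in qPRO-seq 250k overlapped by PRO-seq 1M. Regions in all lists fell to 6 at or above the median. Regions of qPRO-seq 1M alone fell to 17 within 50 kb, 3 at equal sizes, 17 after merging and 8 at or above the median. Those shared by the 1M lists alone fell to 2 at equal sizes. Those of PRO-seq 1M alone fell to 3 at a p of at most 0.01, 3 within 50 kb, 0 at equal sizes and 0 at or above the median.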

Other observations

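The search of promoters touched genes beyond the members. The 6 genes whose RefSeq promoter holds 4 or more STAT motifs were CISH, BCL6, ZNF112, ZNF225, ZNF225-AS1 and LOC124907892, named after the search. In qPRO-seq 1M a peak lay over all 7 of these promoters, against 12445 of all 34961 promoters. Counting any STAT motif gave the reverse order. At least 1 was present in 6.09% of those 12445 and in 7.66% of all 34961. ZNF225-AS1 is by its name the antisense partner of ZNF225, so the 7 need not be separate cases. The most motifs in any promoter was 4. BCL6, a transcriptional repressor and known STAT5-responsive gene, had start peaks at percentile 73.5 in PRO-seq 1M, 87.4 in qPRO-seq 1M and 69.7 in qPRO-seq 250k.

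Promoters rich in G and C were found both with and without a peak among the members. The ABL1 promoter in the RefSeq table, at its downstream start and without a peak in any list, was 78.3% G and C. The CISH and BCR promoters, which all 3 lists overlapped, were 70.3% and 71.7%, and the STAT5B promoter, overlapped in PRO-seq 1M alone, was 82.0%. The median was 69.0% over the 15 member promoters, 66.0% over promoters with a peak in qPRO-seq 1M, and 58.7% over all promoters.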
